A study of Mus musculus with 4 samples.

Results

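The arrays described here are those of the Hey2 line, mouse embryonic stem cells named CM7/1 that the labels describe as overexpressing Hey2. They were chosen by their titles and make up 2 of the 4 arrays of the series. Uninduced cells were compared with cells given 1000 ng/ml doxycycline for 48 h. The other 2 arrays are the same pair from the Hey1 line, cells of the same name described as overexpressing Hey1, and serve as background here. Total RNA was labelled with biotin and hybridised to Affymetrix arrays, with 1 array per group. Levels are log2 values from RMA, which corrects background, equalises the arrays and summarises each probe set. The driving promoter, the number of clones and any feeder layer have no entry in the labels. With 1 array on each side no difference has a replicate check, and no p-value is given.

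Hey2 is a basic helix-loop-helix repressor that is switched on by Notch signalling. Notch receptors are cleaved after a Delta or Jagged ligand binds, and the freed fragment acts with Rbpj to turn on genes of the Hes and Hey families. Hey proteins bind E-box letters of the CACGTG type and recruit corepressors. In embryonic stem cells, Nodal, bone morphogenetic protein (BMP) and fibroblast growth factor signals act beside the pluripotency factors and prime cells for exit towards the germ layers.

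The upstream letters of 4 genes that differ below are shown first, since Hey2 and the repressors of germ cell genes are known to act at such letters. Each line gives 250 bases before a RefSeq start of the gene in mouse assembly GRCm38.p6, with matches to CACGTG, to CACGCG and its reverse complement CGCGTG, or to the E2F-type letters GCGGGAA in capitals. The genes were picked after their values were seen and because a match was present. Jag1 lies at chr2:137116521-137116770 on the minus strand, Taf7l at chrX:134476491-134476740 on the minus strand, Stk31 at chr6:49395289-49395538 on the plus strand and Meioc at chr11:102665335-102665584 on the plus strand.
Jag1: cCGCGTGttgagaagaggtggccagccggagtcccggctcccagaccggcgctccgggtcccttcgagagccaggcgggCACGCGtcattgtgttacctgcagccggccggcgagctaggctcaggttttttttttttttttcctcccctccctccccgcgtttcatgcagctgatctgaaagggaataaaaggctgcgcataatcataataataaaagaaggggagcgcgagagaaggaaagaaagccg
Taf7l: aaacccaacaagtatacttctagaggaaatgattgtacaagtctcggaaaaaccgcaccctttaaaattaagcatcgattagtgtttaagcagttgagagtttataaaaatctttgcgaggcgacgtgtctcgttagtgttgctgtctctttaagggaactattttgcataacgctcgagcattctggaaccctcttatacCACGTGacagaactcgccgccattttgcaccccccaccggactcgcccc
Stk31: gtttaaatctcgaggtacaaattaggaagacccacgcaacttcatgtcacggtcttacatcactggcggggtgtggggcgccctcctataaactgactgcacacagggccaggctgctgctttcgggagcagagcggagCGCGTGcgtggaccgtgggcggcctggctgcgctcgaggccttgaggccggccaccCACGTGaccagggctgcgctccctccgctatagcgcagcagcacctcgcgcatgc
Meioc: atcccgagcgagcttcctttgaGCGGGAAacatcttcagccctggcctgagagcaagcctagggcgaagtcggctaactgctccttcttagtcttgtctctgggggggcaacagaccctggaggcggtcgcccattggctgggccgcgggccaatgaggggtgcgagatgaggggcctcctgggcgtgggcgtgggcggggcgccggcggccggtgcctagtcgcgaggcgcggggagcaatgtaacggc

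Jag1 encodes a Notch ligand and was lower in the array labelled induced. Its matches to the CACGCG motif start 249 and 171 bases before the start. Taf7l, Stk31 and Meioc are germ cell genes and were higher. The CACGTG match of Taf7l starts 49 bases before its start and that of Stk31 55 bases before, and the GCGGGAA match of Meioc starts 228 bases before. The CGCGTG match of Stk31 starts 111 bases before the same start. Stk31 has a further RefSeq start downstream, and its CACGTG match lies 120 bases before that start. Among the 29 genes at least 2-fold lower, 18 had a RefSeq window. Of their 26 windows, 2 held CACGTG (7.69%) and 2 held CACGCG (7.69%), where 8.34% and 13.9% of the 12455 windows of all compared genes did. The 83 genes at least 2-fold higher had 71 windows, with CACGTG in 12.7% and CACGCG in 16.9%. GCGGGAA stood in 2 of the 26 windows of lower genes (7.69%), in 5.63% of the windows of higher genes and in 6.78% of all. Both strands were searched, the motifs do not overlap each other in the printed windows, and a match is a description of the letters.

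The label of the induced array was checked first. On the log2 scale the single Hey2 probe set had 4.25 in the uninduced array and 4.34 in its counterpart, a difference of 0.09. The second value lay at the 20.4th percentile of that array. The probe set therefore showed no induction of Hey2, and it is unknown here whether it reads the introduced transcript. Hey1 was lower by 0.47, from 6.72 to 6.25. All directions below are labelled induced less uninduced.

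All 12 stem cell markers, among them Pou5f1 (13.69 and 13.76), Sox2 (12.92 and 12.91) and Zfp42, lay at 11.15 or above. Their summed level was 16.75 in uninduced and 16.77 in induced cells on the log2 scale. Markers of other cell types were much lower. Of 10 fibroblast (feeder) markers 2 passed a level filter of 6.05 and their summed level was 8.83 and 8.68. Of 10 cardiomyocyte markers 3 passed, with sums of 9.20 and 9.19, and of 6 primitive endoderm markers 2 passed, with sums of 8.15 and 8.39. The cardiomyocyte markers Myh7 (5.55 and 5.32) and Myl2 (5.50 and 5.30) and the fibroblast markers Dcn (5.88 and 5.77) and Lum (4.60 and 4.33) were below the filter in both arrays. Single markers differed in both directions. The cardiomyocyte markers Myh6 (5.60 and 6.48) and Ryr2 (4.75 and 5.93) were higher, and Myl7 (7.76 and 7.28) and Actc1 (5.72 and 5.06) lower. The endoderm marker Sox7 (5.44 and 6.62) was higher. Of the trophoblast markers Gata3 (4.10 and 4.82) was higher and Hand1 (7.69 and 6.95) lower. The summed level of the 4 neural progenitor markers was 9.28 in uninduced and 8.86 in induced cells, and that of the 4 trophoblast markers 8.23 and 7.76.

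The Hey2-line arrays were set against those of the Hey1 line. A gene was compared when at least 1 of its 4 values was 6.05 or more, the array-wide median, which left 12098 of 18194 named genes. Between the arrays of the Hey2 line 112 genes differed at least 2-fold (0.926%). The array labelled induced differed at least 2-fold from the uninduced and labelled induced arrays of the Hey1 line for 229 and 195 genes, and the uninduced Hey2-line array did so for 237 and 387. Of the 83 genes at least 2-fold higher in the labelled induced array, 76 had their lowest value of the 4 arrays in the uninduced Hey2-line array, where 26.8% of all genes compared had theirs. Of the 29 genes at least 2-fold lower, 21 had their highest value there, against 34.4% of all genes. The labelled induced Hey2-line array in turn was the lowest of the 4 for 21 of these 29 genes and the highest for 39 of the 83. The values that define these counts also chose the genes, so the shares are a description. Fewer cells with a transcript and less of it per cell cannot be told apart in these bulk samples.

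In the Hey2 line 83 genes were at least 2-fold higher in the array labelled induced (0.686% of the genes compared) and 29 at least 2-fold lower (0.240%). Most genes differed little. Of all genes compared, 94.5% lay within 1.5-fold, and the median difference was -0.02. The 1st and 99th percentiles of the difference were -0.72 and 0.89. At 1.5-fold, 365 genes were higher (3.02%) and 298 lower (2.46%), and 45.6% of genes were above 0. The higher genes lay mostly among weakly expressed genes: 53 of the 83 were among the 3025 genes of lowest level, where the scaled median absolute deviation of the difference was 0.36, and 6 among the 3025 of highest level, where it was 0.14. The uninduced value lay below the level filter for 41 of the 83, so the sizes of those folds are uncertain. With both Hey2-line values required to reach the filter, 42 higher and 20 lower genes were left. Among the 29 lower genes 20 had both values at or above the filter and 12 had both at or above 8.31, the 75th percentile of all values. The lower genes were spread over the levels. Of the 29, 11 were among the 3025 genes of lowest level and 2 among the 3025 of highest level. Another 11 were among the 3024 genes just below the latter.

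**Figure D1:**
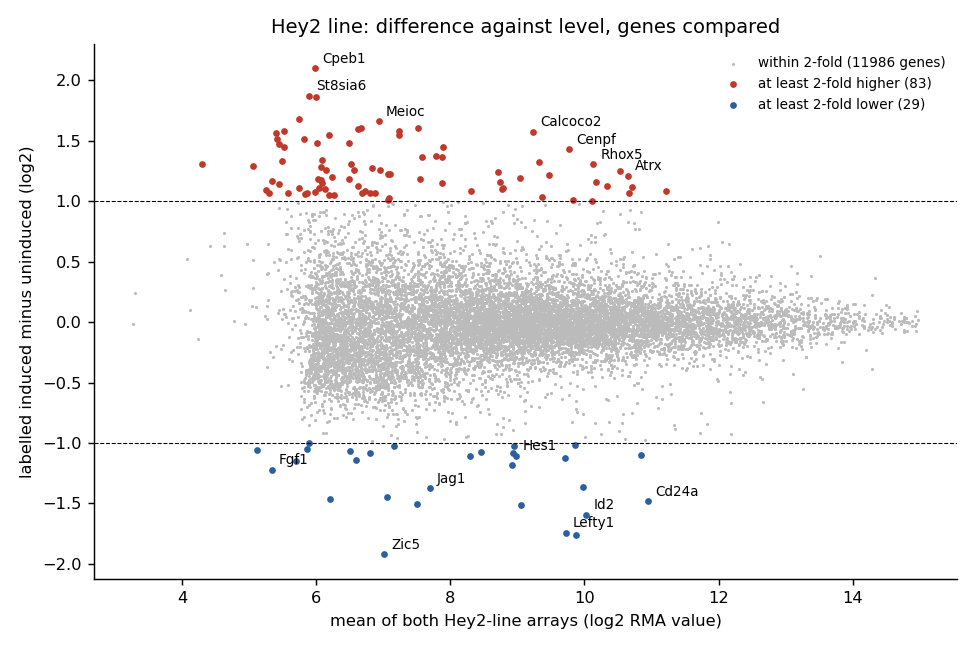
Difference between the Hey2-line arrays (labelled induced minus uninduced, log2) against their mean log2 RMA value, 1 point per gene compared (12098). Dashed lines mark 2-fold. The 83 higher genes gather at low levels, with 53 among the 3025 genes of lowest level. Lower genes spread over the range, with 11 among the 3025 of lowest level and 2 among the 3025 of highest level. Id2, Cd24a and Lefty1 are lower genes that stand at high levels.

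Of the Notch pathway genes, Jag1 and Hes1 were past 2-fold, both on the lower side. The ligand gene Jag1 read 8.38 in uninduced and 7.004 in labelled induced cells, 2.59-fold lower, and 8.62 and 7.67 in the Hey1 line. Its second probe set was lower by 0.78. Hes1, the effector repressor, read 9.53 and 8.42, 2.15-fold lower, and 9.46 and 8.97 in the Hey1 line. For both genes the uninduced arrays of the lines lay close together and the labelled induced Hey2-line array was the lowest of the 4. The ligand gene Dll1 read 6.47 and 5.75, and the receptor gene Notch1 read 9.11 and 8.59. Other effectors differed less, with Hes5 from 7.05 to 6.68, Hes6 from 8.69 to 8.29 and Nrarp from 7.58 to 7.54. Rbpj, the DNA-binding partner of the cleaved receptor, read 11.75 and 11.95. Of 34 Notch pathway genes compared 16 were above 0, 2 were at least 2-fold lower, 0 at least 2-fold higher, and the median was -0.04 against -0.02 over all genes. Over all genes 45.6% were above 0 and 0.240% at least 2-fold lower. Another 4 members, among them Hey2 and Dll4, were below the filter.

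Of the Nodal pathway genes, Lefty1 and Lefty2 were past 2-fold, both on the lower side. Lefty1 and Lefty2 encode secreted antagonists of Nodal. Lefty1 read 10.60 and 8.85, a 3.35-fold lower value, and Lefty2 read 8.25 and 6.75, 2.84-fold lower. In the Hey1 line Lefty1 read 9.85 and 8.91 and Lefty2 8.59 and 7.45, so both genes were lower in each array labelled induced. The genes are close paralogs, and signal of one in the probe set of the other cannot be told apart here. Skil, which encodes a SMAD corepressor, read 11.39 and 10.41. Nodal itself read 10.58 and 10.73, its co-receptor gene Tdgf1 read 13.35 and 13.32, and Smad2 and Foxh1, which carry the signal, were lower by 0.17 and 0.09. Of 21 genes compared, 2 were at least 2-fold lower and 0 higher, with 8 above 0 and a median of -0.08. Of all genes 0.240% were at least 2-fold lower and 45.6% above 0.

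Id genes, which are turned on by BMP signals and hold basic helix-loop-helix factors inactive, differed in both directions. Id2 read 10.82 and 9.23, a 3.02-fold lower value, and its other probe set was lower by 1.56. In the Hey1 line it read 10.02 and 9.68, so the labelled induced Hey2-line array was the lowest of the 4 and the uninduced one the highest. Id1 read 12.25 and 11.40, and Id4 read 9.34 and 8.73. Id3 read 8.98 and 9.18, and the inhibitory SMAD gene Smad6 read 6.40 and 7.23, in the other direction. The ligand gene Bmp4 differed by -0.34 and Bmp7 by -0.55. Of 16 BMP and Id genes compared, 1 was at least 2-fold lower and 0 higher, 7 were above 0 and the median was -0.06. The shares over all genes were 0.240% at least 2-fold lower and 45.6% above 0.

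Zic5 and Zic2 encode zinc finger factors of the early neural plate and are direct neighbours among the protein-coding genes of GRCm38.p6. Zic5 read 7.97 and 6.049, 3.79-fold lower, the lowest difference of all genes compared, and its 3 probe sets lay from -1.92 to -1.37. The labelled induced value of Zic5 fell just under the level filter (6.0547 before rounding). Those of its other probe sets, 5.635 and 4.934, lay further below, which makes the exact fold less sure. Zic2 read 5.64 and 4.59, both below the level filter, so its 2.08-fold lower value is uncertain. In the Hey1 line Zic5 read 9.33 and 8.28 and Zic2 7.29 and 5.70, so both genes were higher in that line in each state. Sox1, a neural progenitor factor, read 7.05 and 5.98, with its other probe set lower by 0.36. Dpysl3, which acts on the cytoskeleton of growing neurites, read 9.51 and 8.33, and the guidance receptor gene Nrp2 read 9.45 and 8.43 with its 4 probe sets from -1.02 to -0.82. Of the 20 neuroectoderm genes compared, Sox1 and Dpysl3 were at least 2-fold lower and 0 higher, 6 were above 0 and the median was -0.10. Over all genes 0.240% were at least 2-fold lower and 45.6% above 0. The labelled induced value of Sox1 was below the filter, and both values of Dpysl3 were above it. Pax6 (6.73 and 6.60) and Tubb3 (9.16 and 9.11) differed little.

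Other lower genes belong to various functions. Trh, the thyrotropin-releasing hormone gene, read 10.76 and 8.99, 3.40-fold lower, against 11.80 and 11.15 in the Hey1 line. Cd24a, a surface glycoprotein gene, read 11.69 and 10.20, 2.79-fold lower, and its 3 probe sets differed by -1.58 to -1.48. These are levels well above the filter, and the labelled induced Hey2-line array was the lowest of the 4 for each. Ptch1, the Hedgehog receptor gene, read 11.39 and 10.29, but its other probe sets were lower by 0.45 and 0.51, and its Hey1-line values of 10.37 and 10.04 lay near the labelled induced value. Fgf18 read 6.94 and 5.47 and Sgms2, a sphingomyelin synthase gene, 7.78 and 6.33. For both the Hey1-line arrays lay near the labelled induced value (5.71 and 5.67 for Fgf18, 6.60 and 6.45 for Sgms2), so that the uninduced Hey2-line array alone was high. Trim13, a ubiquitin ligase gene, read 10.66 and 9.30, and Hopx, a homeodomain gene without DNA binding, 10.37 and 9.35.

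**Figure D2:**
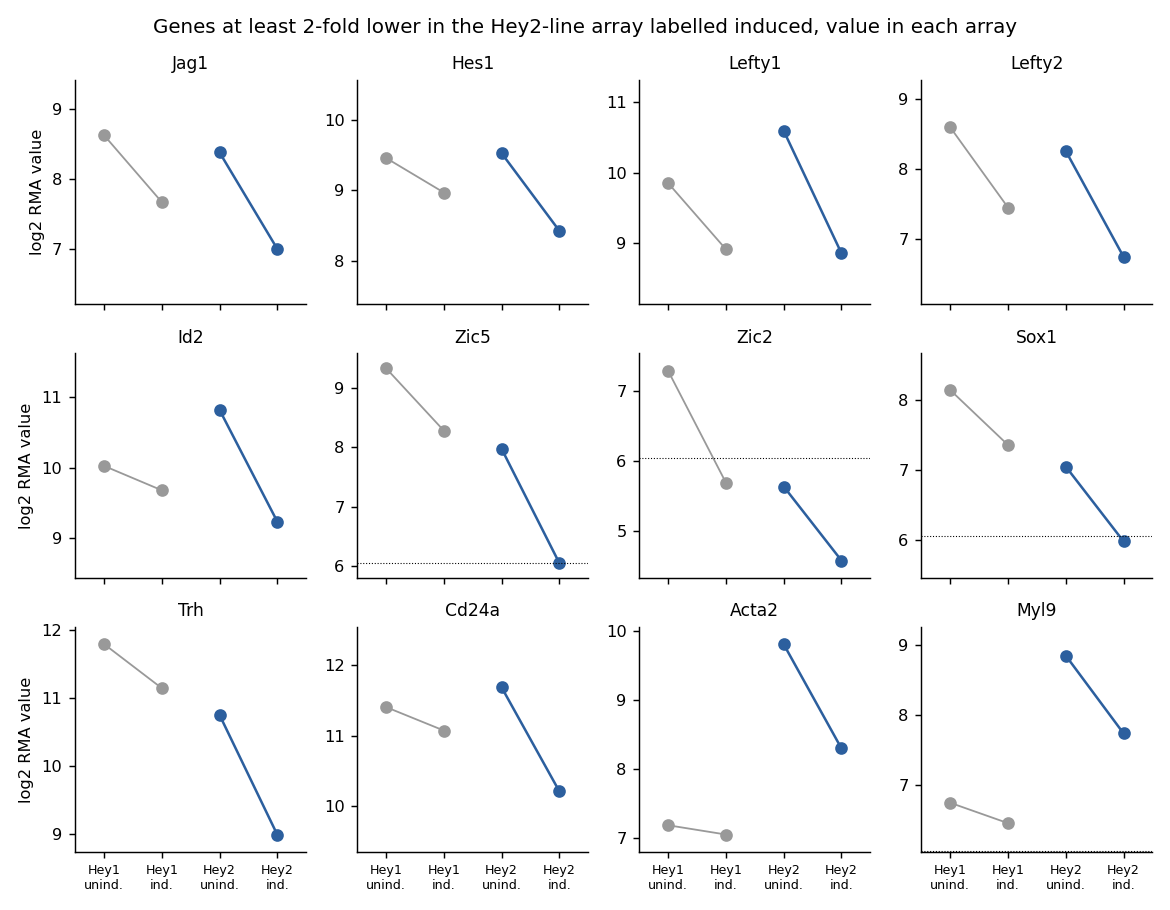
Log2 RMA value in each of the 4 arrays for 12 genes past 2-fold on the lower side of the Hey2-line comparison (blue, Hey2 line; grey, Hey1 line; 1 array per point; dotted line, level filter of 6.05; panels differ in their vertical range). Jag1, Hes1 and Lefty1 start from like levels or differ modestly between uninduced arrays, while Acta2 and Myl9 are high in both Hey2-line arrays.

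Acta2, Myl9 and Tagln, genes of contractile smooth muscle, had higher levels in both Hey2-line arrays than in either Hey1-line array, and lower levels in the labelled induced Hey2-line array than in the uninduced one. Acta2, smooth muscle actin, read 9.81 and 8.30, 2.86-fold lower, against 7.18 and 7.05 in the Hey1 line. Myl9, a myosin light chain gene, read 8.84 and 7.73 against 6.75 and 6.46, and Tagln read 9.22 and 8.34 against 7.22 and 7.40. With the uninduced Hey1-line array as the reference, the differences of Acta2 and Myl9 turned to 1.12 and 0.99. Of 24 genes of the smooth muscle and serum response factor list compared, 2 were at least 2-fold lower and 0 higher, 7 were above 0 and the median was -0.18. The factor gene itself, Srf, was lower by 0.27, and the abundant actin genes Actb and Actg1 differed by -0.07 and 0.01. Over all genes 0.240% were at least 2-fold lower and 45.6% above 0.

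Among Wnt genes Tcf7l1 and Notum were past 2-fold on the lower side, Notum with a labelled induced value just below the filter. Tcf7l1, a repressor of Wnt target genes that restrains pluripotency, read 10.27 and 9.15, and its second probe set was lower by 1.41. Notum, a secreted Wnt inhibitor gene, read 7.16 and 6.02, and the cyclin gene Ccnd1 10.49 and 9.54. The target gene Axin2 read 7.62 and 8.01 and Sp5 6.69 and 6.96, on the other side of 0. Of 28 Wnt genes compared 2 were at least 2-fold lower and 0 higher, 8 were above 0 and the median was -0.13. The shares over all genes were 0.240% at least 2-fold lower and 45.6% above 0. Among 29 genes of fibroblast growth factors and their ERK feedback, Fgf18 (6.94 and 5.47, the second below the filter) and Fgf1 (5.95 and 4.73, both below it) were at least 2-fold lower and 0 were higher, 12 were above 0 and the median was -0.06. The feedback genes Dusp6 (10.94 and 10.98) and Spry2 (10.13 and 10.07) were nearly level, and Spred3 was higher by 0.99.

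Naive pluripotency genes stayed within 2-fold. Of the 29 compared, 19 were above 0, the median was 0.09 and 0 passed 2-fold in either direction. Over all genes 45.6% were above 0, the median was -0.02 and 0.926% passed 2-fold. At 1.5-fold 2 of the 29 were higher and 2 lower, where 3.02% and 2.46% of all genes were. Nanog read 12.73 and 12.94 and Esrrb 12.02 and 11.92. Tbx3 (9.94 and 10.66), Klf4 (11.42 and 12.03) and Tfcp2l1 (11.59 and 12.15) were the most positive members. Tcl1 (12.11 and 11.36), Klf2 (12.99 and 12.33) and Nr0b1 (12.89 and 12.42) were the most negative. The factors of the naive network thus differed in both directions. Among 18 epiblast and primed genes compared, Sall2 was higher (5.43 and 6.71), Zic2 lower, and the de novo methyltransferase gene Dnmt3a read 9.74 and 10.46. Of 14 DNA methylation genes compared 11 were above 0, with a median of 0.19 and none past 2-fold.

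Germ cell genes were the list with the most members at least 2-fold higher. This list was chosen with earlier values of several members known, so its count is no independent evidence. Of 38 genes compared 29 were above 0, 9 were past 2-fold on the higher side and 0 on the lower. The median was 0.32, and 0.32 in the Hey1 line. Of all genes 45.6% were above 0 and 0.686% at least 2-fold higher. Another 17 members were below the filter. With both Hey2-line values required to reach it, 29 members were left, Meioc, Rnf17, Brca2 and Slc25a31 were the 4 of them past 2-fold, and the median was 0.23. Cpeb1, which regulates translation of stored messages in oocytes, read 4.94 and 7.04, 4.29-fold higher and the largest difference of all genes compared. In the Hey1 line it read 5.004 and 6.06, so both arrays labelled induced were above both uninduced arrays. Meioc, needed for meiotic prophase, read 6.10 and 7.76, against 7.33 and 8.21 in the Hey1 line. Tex15, which acts in recombination and transposon silencing, read 5.87 and 7.47 against 6.19 and 7.61. Taf7l, a germ cell subunit of the general factor TFIID, read 4.73 and 6.31 against 5.20 and 6.47. For Tex15 and Taf7l too, both arrays labelled induced lay above both uninduced arrays, whereas the uninduced Hey1-line value of Meioc was near the labelled induced Hey2-line value. The other members past 2-fold were Tex11 (4.71 and 6.18), Brca2 (9.59 and 10.75), Meiob (5.20 and 6.30) and Slc25a31 (6.27 and 7.34), beside Rnf17. In the Hey1 line Brca2 read 10.65 and 10.65, so the uninduced Hey2-line array alone was low. Slc25a31 read 7.38 and 8.56 there, so its uninduced Hey1-line value was near the labelled induced Hey2-line value. For Tex11 (5.89 and 6.58), Meiob (5.33 and 5.69) and Rnf17 (8.69 and 9.49) both labelled induced arrays lay above both uninduced ones.

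Rnf17, a Tudor domain gene of the germ cell list that acts in the piRNA pathway, which silences transposons, read 8.44 and 9.63, 2.28-fold higher, with 3 probe sets higher by 0.95 to 1.32. Stk31, with a Tudor and a kinase domain, read 5.74 and 7.23, but 7.41 and 7.84 in the Hey1 line, so its uninduced Hey2-line value was the low one. Stk31 stood outside the list, and the suffix of its probe set marks possible cross-hybridisation. Tdrkh read 5.94 and 7.20 and Rbm44 4.70 and 5.79, and both were singled out after their values were seen. The uninduced value of Tdrkh and both values of Rbm44 were below the level filter, so these differences are uncertain. Below 2-fold, Dazl (6.49 and 7.38), Gtsf1 (8.55 and 9.36), Sohlh2 (7.57 and 8.39), Ddx4 (8.32 and 8.96) and Piwil2 (7.58 and 8.19) had positive differences. Other meiosis genes differed little, with Syce2 at 12.91 and 12.95, Dmc1 at 6.56 and 6.49 and Stra8 at 7.06 and 6.87. Rhox5, a homeobox gene of the X-linked reproductive cluster and outside the list, read 9.47 and 10.78. The 19 genes compared of the Mga, E2f6 and H3K9 methylation machinery that holds germ cell genes silent had a median of -0.09 with 0 past 2-fold, Mga itself at 10.42 and 10.83 and Atf7ip at 9.10 and 8.60.

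**Figure D3:**
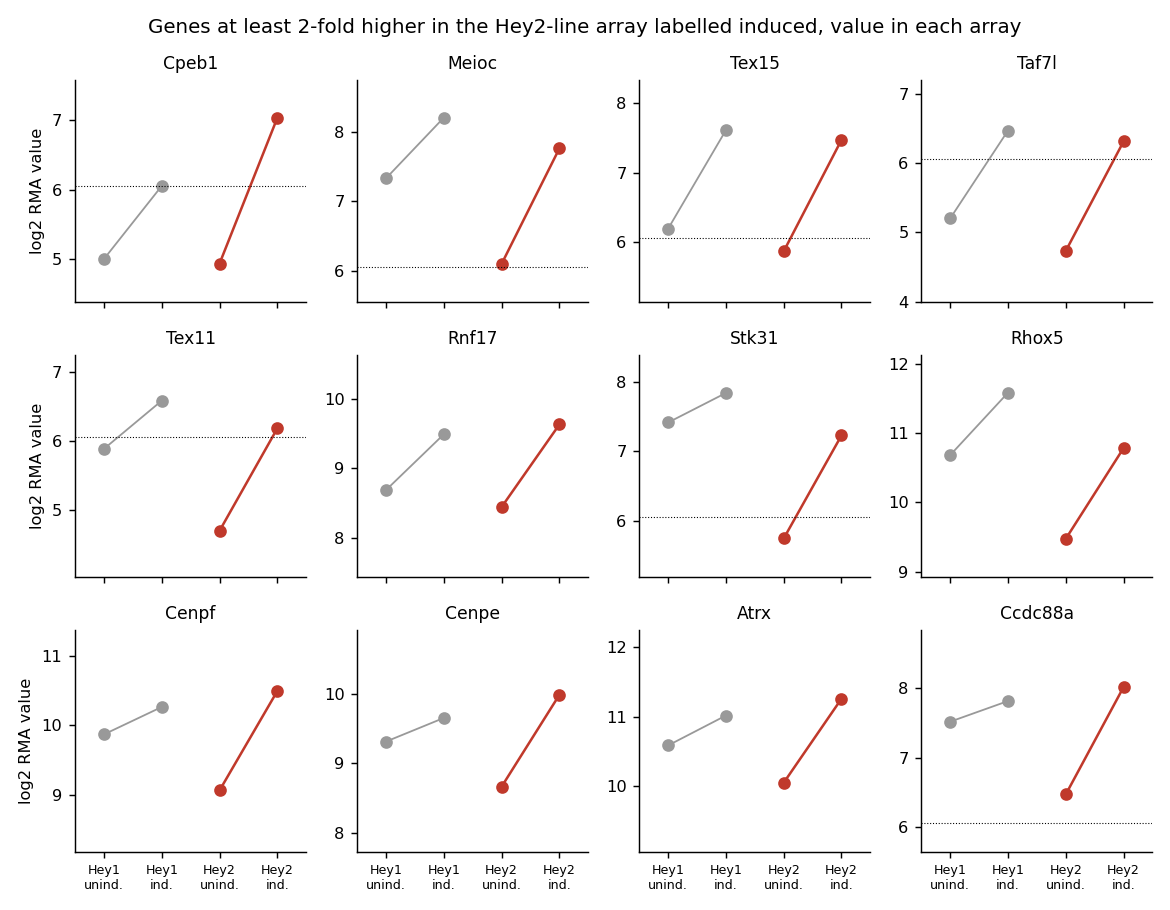
Log2 RMA value in each of the 4 arrays for 12 genes at least 2-fold higher in the Hey2-line array labelled induced (red, Hey2 line; grey, Hey1 line; 1 array per point; dotted line, level filter of 6.05; panels differ in their vertical range). For Cpeb1, Tex15 and Taf7l both labelled induced arrays lie above both uninduced ones, while for Cenpf, Cenpe and Ccdc88a the uninduced Hey2-line array is the low one.

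Of the mitosis genes 4 were past 2-fold, all on the higher side and all with both values above the filter. Cenpf and Cenpe act at the kinetochore. Cenpf read 9.06 and 10.49, 2.70-fold higher, and Cenpe 8.67 and 9.99, 2.50-fold higher. The second Cenpf probe set was higher by 0.59 (5.68 and 6.27) and that of Cenpe by 1.82. Kif20b, a mitotic kinesin gene, read 9.90 and 11.15, and Knl1, the kinetochore scaffold gene, 8.08 and 9.33. For all 4 genes the uninduced Hey2-line array was the lowest of the 4. The labelled induced Hey1-line array had 10.26 for Cenpf and 9.66 for Cenpe. The rest of the mitosis list differed little, with Plk1 at 10.74 and 10.75, Aurka at 11.21 and 11.24 and Cdk1 at 12.28 and 12.31. Of 39 mitosis genes compared 4 were at least 2-fold higher and 0 lower, 28 were above 0, and the median was 0.09. Of all genes 0.686% were at least 2-fold higher, 0.240% at least 2-fold lower and 45.6% above 0. In the Hey1 line 23 of the 39 mitosis genes were above 0, with a median of 0.045. DNA replication genes had a median of -0.03 over 41 compared, with 0 past 2-fold.

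Of the centrosome and cilium genes 4 were also past 2-fold on the higher side, Ccdc18 and Ccdc88a of them with both values above the filter. Ccdc18 read 6.71 and 8.32, Ccdc88a 6.47 and 8.02 and Cep290, a gene of the ciliary transition zone, 5.41 and 6.75. Pkhd1, the fibrocystin gene, read 4.67 and 6.18 and reached the level filter in that array alone. Of 43 genes compared 4 were at least 2-fold higher and 0 lower, 33 were above 0, and the median was 0.14 against 0.00 in the Hey1 line. Pcm1 (8.22 and 9.04) and Ift74 (8.85 and 9.60) came next, while Plk4 (11.46 and 11.44) and Pcnt (9.70 and 9.70) were level. The share of all genes at least 2-fold higher was 0.686%, and 45.6% were above 0. Ccdc18, Ccdc88a and Pkhd1 were known to be high when the list was drawn.

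Long genes were frequent on the higher side. The median genomic length was 43.6 kb for the 83 higher genes, 10.5 kb for the 29 lower genes and 22.2 kb for all genes compared with a length. Of the 1206 genes longer than 110.6 kb, 21 were at least 2-fold higher (1.74%) and 5 lower (0.415%). Among the other 10849 genes 62 were higher (0.571%) and 24 lower (0.221%). Genes longer than 110.6 kb thus made up 25.3% of the higher and 17.2% of the lower genes. In the Hey1 line 5 of the 1206 long genes and 48 of the 10849 others were at least 2-fold higher. The titin gene Ttn read 6.89 and 8.26, the chromatin remodeller gene Atrx 10.05 and 11.26, Vps13a 6.20 and 7.47, the ubiquitin protease gene Usp9x 9.62 and 10.62 and Phip 9.33 and 10.34. Atrx, Vps13a and Phip were singled out after their values were seen. A sign of RNA quality differed between the same arrays. The log2 difference of 3' over 5' control probe sets went from 0.67 to 0.96 for Tfrc and from 1.33 to 1.56 for Pcx in the Hey2 line, against 0.95 and 0.84 for Tfrc and 1.38 and 1.43 for Pcx in the Hey1 line. For Actb it was 0.39 and 0.42. The part of RNA quality and of gene length in these differences was not tested.

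Probe sets of the same gene did not always give the same answer. Of the 83 higher genes 26 had several probe sets above the filter, and for 22 of these all had the same sign. The exceptions were Atrx, with 6 probe sets from -0.37 to 1.98, Vps13a, with 4 from -0.17 to 1.79, Prph, with -0.58 and 1.23, and Apobec2, with -0.39 and 1.08. All probe sets were past 2-fold for 8 of the 26, namely Cenpe, Kif20b, Knl1, Lpar4, Gulp1, Stk31, Ccdc88a and Zfp820. Of the 29 lower genes 13 had several, all 13 with a single sign, and for 5 of them, namely Zic5, Id2, Cd24a, Tcf7l1 and Hopx, every probe set was past 2-fold. Probe sets of Bcor, a corepressor gene that partners Bcl6, read -1.03, -1.02 and -0.997.

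**Figure D4:**
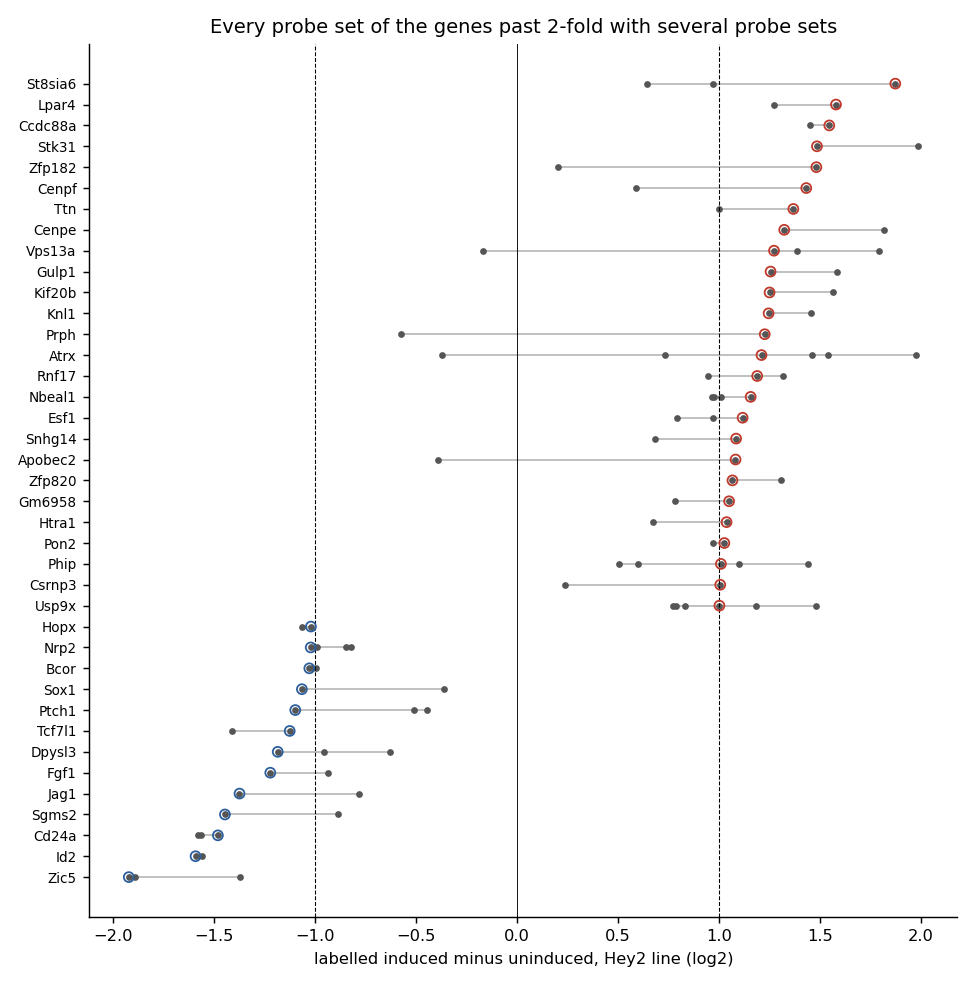
Difference of every probe set above the level filter (dots, log2) for the 39 genes past 2-fold with several probe sets in the Hey2 line. Circles mark the probe set that stands for the gene (red higher, blue lower), and dashed lines mark 2-fold. All probe sets of the 13 lower genes lie below 0, while those of Atrx, Vps13a, Prph and Apobec2 fall on both sides.

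Further genes with large higher values follow. St8sia6, a sialyltransferase gene, read 4.96 and 6.84, 3.66-fold higher, but 7.55 and 7.97 in the Hey1 line. Its other probe sets differed by 0.64 and 0.97, so the size rests on the probe set used. Prss35, a protease gene, read 5.42 and 6.96 against 7.78 and 7.99. For both, at these probe sets, each Hey2-line value was below each Hey1-line value. Clnk, an adaptor of immune receptors, read 5.07 and 6.93 against 5.57 and 7.30, and Calml4, a calmodulin-like gene, 7.17 and 8.62 against 6.74 and 8.27, so both labelled induced arrays were above both uninduced ones. Calcoco2, a selective autophagy receptor gene, read 8.45 and 10.03, the highest difference among genes with both Hey2-line values at or above 8.31. Lpar4, a lysophosphatidic acid receptor gene, read 6.44 and 8.02, Tnik, a kinase of the Wnt pathway, 5.07 and 6.58, and She, an adaptor gene, 5.83 and 7.43. Genes named Zfp, a class of zinc finger factors, were at least 2-fold higher in 6 of 285 compared (2.11%) and lower in 0. The shares over all genes compared were 0.686% and 0.240%. In the Hey1 line 1 of the 285 was at least 2-fold higher.

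Stress genes were shifted by small amounts. The Atf4 list covers the integrated stress response, which raises amino acid synthesis and transport. Of 44 genes compared 38 were above 0, with a median of 0.23 against 0.08 in the Hey1 line, and 0 passed 2-fold. Pck2 read 9.94 and 10.66, the kinase-like feedback gene Trib3 9.71 and 10.40 and the asparagine synthetase gene Asns 13.24 and 13.78. The transporter genes Slc7a3 and Slc38a2 were each lower by 0.39. Of all genes compared 45.6% were above 0. The p53 list had 13 of 36 above 0 and a median of -0.10, against a median of -0.09 in the Hey1 line. Perp (9.15 and 8.22) was its lowest member and Pmaip1 (8.02 and 8.72) its highest. Endoplasmic reticulum chaperones (26 genes, median 0.04), cytosolic heat shock genes (21, 0.03), respiratory chain subunits (55, -0.06), sterol and fatty acid genes (31, 0.03) and housekeeping genes (25, 0.00) lay near the median of all genes, and 0 of these passed 2-fold. Though small in size, the respiratory chain differences were mostly negative, with 14 of 55 above 0, and 8 in the Hey1 line.

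**Figure D5:**
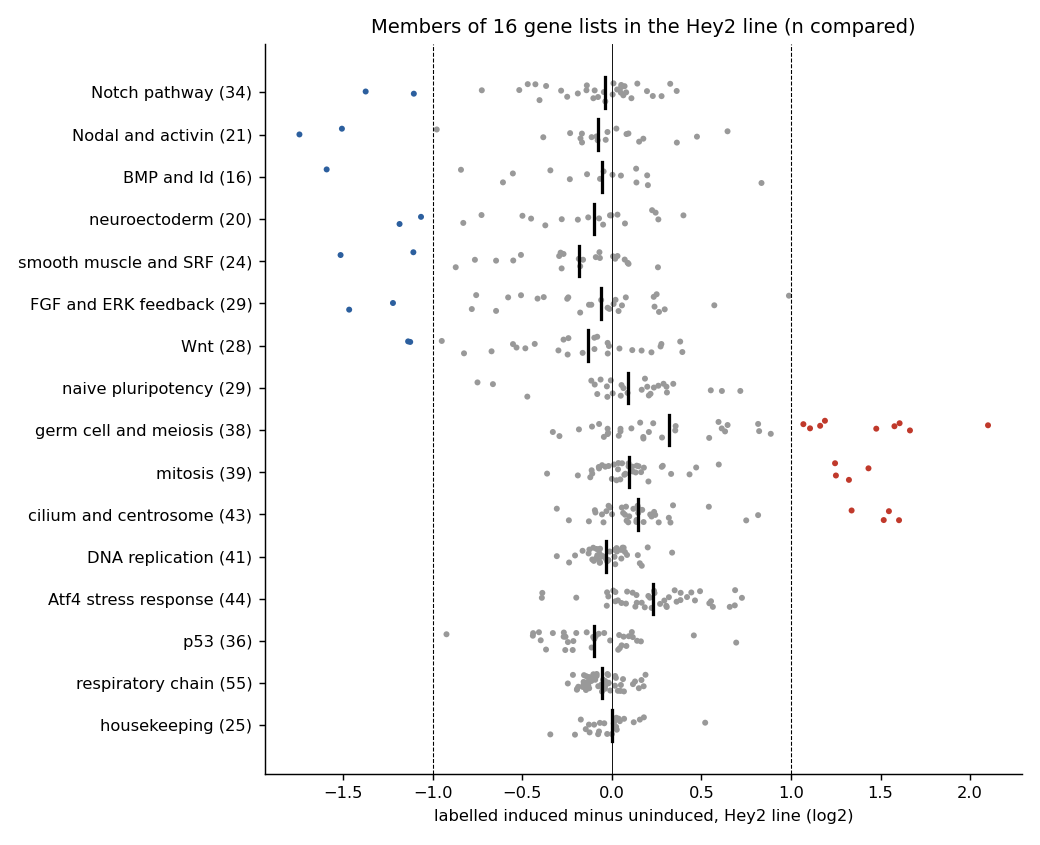
Hey2-line difference (labelled induced minus uninduced, log2) of every member compared in 16 gene lists, 1 point per gene, with the number compared in brackets. Black bars are list medians, dashed lines mark 2-fold, and red and blue points are past it. Points past 2-fold are all higher for germ cell, mitosis and centrosome genes and all lower for Notch, Nodal, BMP, neural, smooth muscle, growth factor and Wnt genes.

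The Hey1 line served as background because it shares no array with the Hey2 line. There 53 genes were at least 2-fold higher (0.438%) and 4 lower (0.0331%), 57 in all (0.471%). At 1.5-fold 222 were higher (1.84%) and 71 lower (0.587%), and 46.8% of genes were above 0. Of the 83 higher genes 75 were above 0 in the Hey1 line (90.4%) and 12 were at least 2-fold higher there, and of the 29 lower genes 26 were below 0 (89.7%) and 4 at least 2-fold lower, where 63.6% of all genes had the same sign in both lines. The sizes were mostly smaller in the Hey1 line, for 79 of the 83 and 28 of the 29. The genes had been chosen by the size of their Hey2-line difference. The median Hey1-line difference was 0.44 over the higher genes and -0.39 over the lower genes. Against the uninduced Hey1-line array, 68 of the 83 were above 0 and 16 at least 2-fold higher. Of the 29, 26 were below 0 and 11 at least 2-fold lower. Over all genes compared, 135 were at least 2-fold higher and 94 lower there. The same labelled induced array chose the genes, so these counts are a description. The 11 lower genes included Zic5 (-3.28), Trh (-2.81), Jag1 (-1.62) and Hes1 (-1.04). The uninduced Hey1-line and Hey2-line arrays already differed for Zic5 (9.33 and 7.97) and Trh (11.80 and 10.76). They lay closer for Jag1 (8.62 and 8.38) and Hes1 (9.46 and 9.53).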

How the data were processed

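Murine embryonic stem cells were profiled on 4 single-colour Affymetrix arrays, 1 per group. The authors deposited log2 values per probe set, summarised with RMA per the submitters' processing notes. Its version, chip description file and build stay unknown here. RMA normalises by quantiles, so a shift of all genes cannot be seen, and sorted values differed by at most 0.0024 between arrays. Values ran from 2.67 to 15.2. Scanner files were not used here, so precision is limited by the number of arrays.

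Arrays were assigned by title. Of 45101 probe sets, the 34958 with a single gene symbol were used, 932 had several and 9211 none. The gene identifiers of 34754 matched RefSeq (GRCm38.p6), which gave gene order, lengths and promoter windows. The probe set of highest mean stood for its gene, which was compared if its highest value reached 6.05. Genes at 2-fold or 1.5-fold were counted and no test was run. The code was tested on simulated data.

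Members, the 42 gene lists and rules were chosen with earlier results of these data known. The rule named up to 20 genes per direction past 2-fold by size, 10 by agreement of probe sets, 8 by departure from the Hey1 line and 5 at high level, neighbours, and list members past 2-fold or among the 4 most different, without predicted or clone names. Other list members are given for contrast and were picked after their values were seen. A list of supposed Hey-repressed genes was left out of the text because the basis of some members was unsure. Alternatives changed the level filter, the probe sets used, the scaling, an offset of 32 on the linear scale and the reference array. Python 3.11.15, numpy 2.4.6, pandas 2.3.3, matplotlib 3.10.9, R 4.3.3 and limma 3.58.1 (cyclic loess) were used.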

Additional observations from a re-analysis of the deposited data

Results flagged for a closer look

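A set of 7 genes past 2-fold in the Hey2 line had the opposite sign in the Hey1 line by more than the scaled median absolute deviation of that line's difference (0.156). This contrast between the lines was not tested, since each line has 1 array per state. Fgf1 was lower by 1.22 in the Hey2 line and higher by 1.90 in the Hey1 line, and Plekho1 was lower by 1.00 against 0.21. The other 5 were higher in the Hey2 line: Zc3h6 by 1.45 against -0.19, Gsta3 by 1.38 against -0.23, Bcl6 by 1.10 against -0.16, Nckap5 by 1.07 against -0.30 and Selenon by 1.05 against -0.42. Gsta3, a glutathione transferase gene, had both Hey2-line values above the level filter (7.10 and 8.48, against 9.13 and 8.89 in the Hey1 line). Each of the other genes reached the level filter in 1 of its 4 arrays alone and was compared only through that value, so these contrasts are uncertain. For Fgf1 this was the labelled induced Hey1-line array (7.32), and for Plekho1 the uninduced Hey2-line array (6.40). For Zc3h6 (6.24), Bcl6 (6.68), Nckap5 (6.12) and Selenon (6.72) it was the labelled induced Hey2-line array.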

How the results depend on the processing

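Against 83 higher and 29 lower genes, the level filter at the 75th percentile gave 28 and 18, averaging over probe sets 55 higher, every probe set on its own 173 higher, and the offset on the linear scale 35 and 17. With the Hey1 uninduced array as the reference the counts were 135 and 94. Under the other alternatives run (no filter, filters on the Hey2-line arrays, no shared-transcript probe sets, cyclic loess and centring) the counts stayed within 1.5 times, except for the filter that requires both Hey2-line arrays, which gave 42 higher. Of 68 named genes past 2-fold, 10 changed sign, each with the Hey1 uninduced array as the reference: St8sia6 (-0.71), Prss35 (-0.82), Stk31 (-0.19), Zfp820 (-0.010), Gsta3 (-0.65), Slc25a31 (-0.037), Ptgs2 (-0.64), Acta2 (1.12), Myl9 (0.99) and Il17b (0.67). The cause was not tested. No paired analysis was possible because each group has 1 array. Leaving out an array leaves no comparison.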

Other observations

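Probe sets without a single gene symbol held many of the higher values. Of 3019 such probe sets above the level filter, controls left out, 72 were at least 2-fold higher in the Hey2-line array labelled induced (2.38%) and 2 at least 2-fold lower (0.0662%). The same probe sets gave 22 and 0 in the Hey1 line. Their largest difference in the Hey2 line was 2.12 and the lowest -1.10. Among the 21097 probe sets with a single symbol above the filter, 173 were at least 2-fold higher in the Hey2 line and 41 at least 2-fold lower. Counted per gene, the shares were 0.686% and 0.240%.

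Imprinted genes gave both signs, with 17 of 29 compared above 0 and a median of 0.10. Sgce read 6.64 and 7.44 and Peg10 5.69 and 6.37, and Igf2 read 7.22 and 6.77. Extracellular matrix genes had 12 of 30 above 0 and a median of -0.11, with Pcolce2 lower by 0.97. Interferon genes had 10 of 23 above 0 and a median near 0, and Ifit2 was higher by 0.75. Over all genes compared 45.6% were above 0 and the median was -0.02.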
